A study of Gallus gallus with 14 samples.

Results

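The genes described here are 10 neuropeptide precursor genes of the chicken retina, out of 18631 genes in the expression table. They were chosen by symbol, as peptides of amacrine cells studied in connection with eye growth, with glucagon first: GCG, VIP, ADCYAP1, UTS2B, TAC1, PENK, NPY, SST, CCK and NTS. Earlier results of these data were known when they were chosen. The p-values and ranks below are therefore not those of genes picked beforehand. All 10 were in the table. Over the 14 libraries, 7 averaged at least 1 CPM (reads per 1000000 reads), UTS2B and VIP averaged 0.903 and 0.602 CPM, and SST was listed at or near 0.

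Amacrine cells are interneurons of the inner retina that shape signals between bipolar and ganglion cells. Many of them store a neuropeptide beside a fast transmitter. The peptide is cut from a precursor protein by convertases in the secretory pathway, packed into dense-core granules and released onto G protein-coupled receptors, so it acts more slowly and widely than the fast transmitter. In the chick retina, glucagon amacrine cells are known for responding to the sign of defocus, and injected glucagon and VIP are known to alter the growth of chick eyes made myopic.

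RNA was sequenced from 7 retinas of eyes fitted for 1 day with a -10 dioptre lens and from 7 control retinas. All came from wild type White Leghorn chickens, aged 3 days at the start. Such a lens moves the image behind the retina, and the growing chick eye elongates. The handling of control eyes, the sex of the birds and whether the retinas came from separate birds are not given in the labels, so p-values cover only the spread between these libraries, which may be technical. Lens libraries are numbered 1 to 4 and 12 to 14 in their titles, for no stated reason, and each run was also set against the same 7 controls. No title number occurs in both groups, so a batch behind the numbering and the lens cannot be told apart, for either lens run or for all lens libraries.

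The reads behind the CPM values, estimated from the smallest step between values, were 34.1 to 49.2 M (M, 1000000) per lens library and 27.7 to 40.2 M per control library. At these depths 1 read was worth 0.0203 to 0.0362 CPM. Values were not divided by gene length, so levels are compared between libraries and not between genes. W-linked genes, which mark female birds, had 604 to 655 CPM in 4 lens and 3 control libraries and 1.53 to 3.10 CPM in the other 7. The 4 lens libraries were lens 1, 2, 3 and 13, so their share differed between the lens runs. Markers of amacrine cells (TFAP2A, TFAP2B, GAD1, GAD2, SLC6A9 and PAX6) summed to 454 to 584 CPM in lens libraries and 503 to 553 CPM in controls. Pigment epithelium markers summed to 1.82 to 9.07 CPM in lens libraries and 2.17 to 4.44 CPM in controls, with BEST1, TYR and MLANA under 0.1 CPM on average. Crystalline lens markers summed to 2.53 to 3.96 CPM in lens libraries and 2.58 to 3.64 CPM in controls, with CRYAA, BFSP2, MIP and LIM2 under 0.1 CPM.

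Across the neuropeptide genes, the means of UTS2B, VIP, ADCYAP1, GCG, TAC1 and NPY were lower in lens retinas. In that order they were 0.446, 0.584, 0.749, 0.821, 0.850 and 0.870 times the control mean. PENK and NTS means were within 3% of the control mean, and CCK had the largest ratio of the 9 members other than SST, at 1.19. In the fit across genes (limma on log2(CPM + 1), adjusted p under 0.05), 0 of the 7 members that averaged at least 1 CPM passed, and percent called among all 11005 tested genes was 0%. At an unadjusted p under 0.05, 1 of the 7 was reached, GCG, beside 14.7% of all tested genes. A fit that kept genes down to 0.5 CPM also took in UTS2B and VIP, and again 0 of 9 members and 0% of 12263 genes passed. Under an unadjusted limma p of 0.05 were 3 members (UTS2B, VIP and GCG, all lower) and 14% of genes, 5.24% as lower. VIP, with a lens mean of 0.444 CPM, entered that fit only through the controls, so its place in this count is not independent of the difference. In whole retina, fewer cells of a type and less RNA per cell cannot be told apart.

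**Figure D1:**
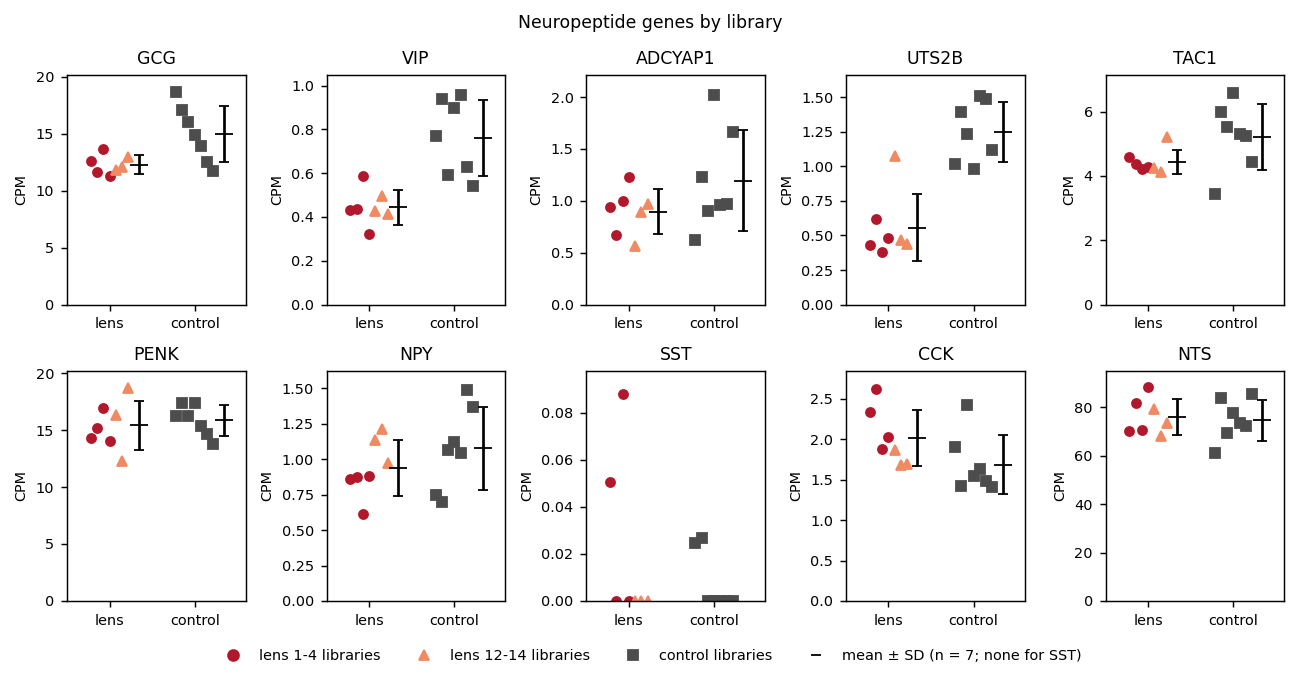
CPM of each neuropeptide gene by library (y axes from 0, a scale per gene), with lens libraries 1 to 4 as circles, lens libraries 12 to 14 as triangles and control libraries as squares; bars show mean ± SD (n = 7), not drawn for SST. UTS2B sat at 0.381 to 0.621 CPM in all lens libraries but lens 12 (1.08 CPM) and at 0.982 to 1.51 CPM in controls, while NTS and PENK overlapped throughout.

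UTS2B encodes a precursor of urotensin-2B, a short cyclic peptide related to urotensin II that acts on the urotensin receptor UTS2R. The gene lies on chromosome 9 at 13858703 to 13865481, plus strand (GRCg6a), and no other listed gene overlaps it. Its lowest, median and highest values were 0.381, 0.470 and 1.08 CPM in lens libraries and 0.982, 1.24 and 1.51 CPM in controls. Of the 7 lens libraries, 6 lay below every control, a pattern whose share of all genes was not counted. Lens 12 lay inside the control range. The mean was 0.557 ± 0.241 CPM in lens and 1.25 ± 0.219 CPM in control retinas (SD, n = 7 each), 55.4% lower. That ratio was the fifth lowest of 12263 genes, of which 8 (0.0652%) had a lens mean at or under 0.5 times the control mean. The difference had an exact permutation p of 0.00175 (two-sided, not adjusted), and between 0.000583, the smallest these splits allow, and 0.00233 with any 1 library left out.

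In the fit down to 0.5 CPM, UTS2B had a log2 fold change of -0.54 (SE 0.095) and ranked second of 12263 genes by p, with an adjusted p of 0.0728 by limma, which missed the threshold. Without lens 12 the log2 fold change was -0.61 and limma's adjusted p was 0.00520, with 4 of 12263 genes called. The lens mean is then under 0.5 CPM, so UTS2B was kept in that fit through the controls, where it is higher. This was the only 1 of 14 fits with a library left out in which UTS2B passed, and in the others limma's adjusted p reached 0.194. The log2(CPM + 1) scale shrinks changes at this level: with 0.1 in place of 1, the log2 fold change was -1.09. UTS2B rested on 13 to 53 reads per lens library and 31 to 52 per control library. Its coefficient of variation was 43.3% in lens libraries, where counting alone gives 20.6%, and 17.6% in controls, where counting gives 15.1%.

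Lens libraries 1 to 4 had 0.432, 0.621, 0.381 and 0.480 CPM of UTS2B, and all 4 lay below the lowest control. Groups lay apart in that direction for 2.52% of 12263 genes. Their mean of 0.478 ± 0.103 CPM (n = 4) stood against 1.25 ± 0.219 CPM in the 7 controls, 61.7% lower. UTS2B fell in this comparison (log2 fold change -0.60, SE 0.095, limma adjusted p = 0.00225), where percent called was 11.8% of the 12263 genes and 3.46% as lower. The mean of these 4 libraries is under 0.5 CPM, so UTS2B entered the fit through the controls and lens 12. With no filter, limma's adjusted p was 0.00327. The call also held with each library left out in turn (limma adjusted p 0.00198 to 0.0123). It did not hold with a rank-sum test (adjusted p = 0.0662), where 0 of 12263 genes passed and 0.0662 was the smallest adjusted p. The exact permutation p was 0.00303, the smallest that 4 against 7 libraries allow.

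Lens libraries 12, 13 and 14 had 1.08, 0.470 and 0.437 CPM of UTS2B, so libraries 13 and 14 lay below every control. Against the 7 controls the log2 fold change was -0.45 (limma adjusted p = 0.896, with 0% of 12263 genes called), and -0.62 (adjusted p = 0.535) without lens 12. The difference between the lens runs was -0.15 (adjusted p = 0.551, with 4.41% of 12263 genes called), and 0.02 without lens 12. Among libraries with W-linked reads, UTS2B averaged 0.476 ± 0.103 CPM in 4 lens and 1.20 ± 0.275 CPM in 3 control libraries, with an exact permutation p of 0.0286, the smallest possible there. Among libraries without them, it averaged 0.664 ± 0.357 CPM in 3 lens and 1.28 ± 0.206 CPM in 4 control libraries (exact p = 0.0857).

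**Figure D2:**
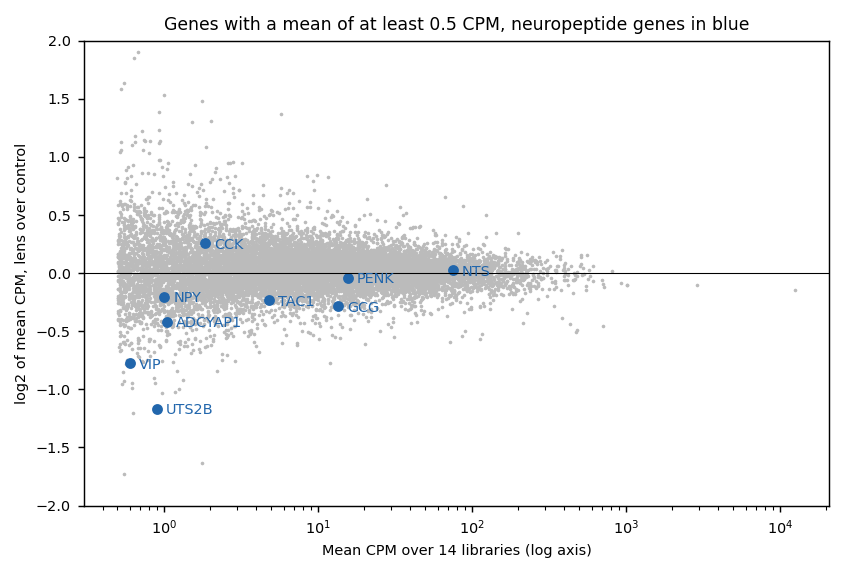
Log2 ratio of the lens mean to the control mean (y axis) against mean CPM over 14 libraries (x axis, log scale) for 12263 genes averaging at least 0.5 CPM, 3 of them outside the y range; neuropeptide genes are in blue. UTS2B has a ratio of 0.446 and VIP, which passed the 0.5 CPM filter only through the controls, one of 0.584, while NTS and PENK lie near 0.

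GCG encodes proglucagon, from which glucagon and the glucagon-like peptides are cut. The gene lies on chromosome 7 at 21113155 to 21132292, plus strand. Lens libraries ran from 11.3 to 13.7 CPM (median 12.1) and controls from 11.7 to 18.7 CPM (median 14.9). Each of the 7 lens libraries was under the median of the controls, which held for 5.37% of 12263 genes. Above the highest lens library lay 5 of 7 controls, a pattern whose share of all genes was not counted. The lens libraries were close together, with a coefficient of variation of 6.84% against 16.6% in controls. Controls 10, 17, 18, 19, 21, 22 and 23 had 18.7, 17.1, 16.0, 14.9, 13.9, 12.5 and 11.7 CPM, so GCG was lower with each higher control title number, and controls 22 and 23 lay inside the lens range. A batch behind the control numbering was not tested. The log2 fold change was -0.25 (SE 0.088, limma p = 0.0105, adjusted p = 0.230), a mean 17.9% lower in lens retinas, and the exact permutation p was 0.0198, unadjusted.

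The GCG difference was alike in both lens runs. Lens libraries 1 to 4 had 12.6, 11.6, 13.7 and 11.3 CPM and lens libraries 12 to 14 had 11.8, 12.1 and 12.99 CPM. Each run gave a log2 fold change of -0.25 against the 7 controls (limma adjusted p 0.138 for libraries 1 to 4 and 0.942 for 12 to 14). Among libraries with W-linked reads GCG averaged 12.5 ± 0.880 CPM in lens and 13.5 ± 1.61 CPM in control (exact permutation p = 0.286), and among those without them 12.03 ± 0.881 CPM in lens and 16.1 ± 2.63 CPM in control (exact p = 0.0857). The lens mean was thus lower within both, with neither difference passing 0.05. The span of GCG overlaps the end of the protease gene FAP on the same strand (21075537 to 21113890), which had 0.0855 to 0.518 CPM in lens and 0 to 0.399 CPM in control libraries.

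VIP encodes the precursor of vasoactive intestinal peptide, a relative of glucagon that raises cyclic AMP through VIPR1 and VIPR2. It lies on chromosome 3 at 49586424 to 49593145, plus strand, and was under 1 CPM in all 14 libraries. It had 0.320 to 0.586 CPM in lens libraries (median 0.432) and 0.541 to 0.959 CPM in controls (median 0.769). Of the lens libraries, 6 lay below every control, and 6 of 7 controls lay above every lens library. How many genes share these patterns was not counted. The mean was 0.444 ± 0.0812 CPM in lens and 0.761 ± 0.175 CPM in control retinas, 41.6% lower. The exact permutation p was 0.00117, unadjusted. In the fit down to 0.5 CPM the log2 fold change was -0.28 (SE 0.075, limma adjusted p = 0.176). VIP passed that filter only through the controls, since its lens mean is under 0.5 CPM, so its place among the fitted genes is not independent of the difference. With no filter the adjusted p was 0.191.

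These VIP values rested on 12 to 21 reads per lens library and 15 to 35 per control library. The coefficient of variation, 18.3% in lens and 23.01% in control libraries, was near the 23.6% and 19.3% that counting alone gives. Lens libraries 1 to 4 had 0.432, 0.437, 0.586 and 0.320 CPM, and lens libraries 12 to 14 had 0.426, 0.495 and 0.413 CPM. Each run gave -0.28 against the controls (limma adjusted p 0.0664 for libraries 1 to 4 and 0.940 for 12 to 14; exact permutation p 0.0121 and 0.025). Within libraries with and without W-linked reads the lens mean was lower by 0.312 and 0.345 CPM (exact permutation p = 0.0571 and 0.0286).

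ADCYAP1, the gene for PACAP, another peptide of this family, lies on chromosome 2 at 101835255 to 101838087, minus strand. Values ran from 0.568 to 1.23 CPM in lens libraries (median 0.939) and from 0.620 to 2.02 CPM in controls (median 0.973). It was under 1 CPM in 6 lens and 4 control libraries. Above every lens library lay 3 controls, with controls 19 and 23 farthest at 2.02 and 1.66 CPM. The share of all genes with that pattern was not counted. The log2 fold change of -0.19 (SE 0.13) did not pass (limma adjusted p = 0.476). With means of 0.894 CPM in lens and 1.19 CPM in control retinas, ADCYAP1 passed the 1 CPM filter only through the controls. Controls 19 and 23 had W-linked reads: within such libraries the lens mean was lower by 0.673 CPM (exact permutation p = 0.0571), and within the others by 0.0089 CPM (exact p = 0.914).

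TAC1 encodes the precursor of substance P and neurokinin A and lies on chromosome 2 at 24644607 to 24650419, plus strand. The lens libraries had 4.13 to 5.22 CPM (median 4.27) and the controls 3.45 to 6.59 CPM (median 5.29). As for GCG, each of the 7 lens libraries was under the control median, which held for 5.37% of 12263 genes. Above every lens library lay 5 controls, a pattern whose share of all genes was not counted. Control 10, at 3.45 CPM, lay below every lens library. The mean was 4.44 ± 0.376 CPM in lens and 5.22 ± 1.03 CPM in control retinas, and the log2 fold change was -0.18 (SE 0.10, limma adjusted p = 0.410). The exact permutation p was 0.0740, 0.00641 without control 10 and up to 0.164 without another library, with 1 of 14 such tests under 0.05.

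PENK encodes proenkephalin, the precursor of the enkephalins, and lies on chromosome 2 at 111379987 to 111384314, minus strand. It had 12.3 to 18.7 CPM in lens libraries (median 15.2) and 13.8 to 17.4 CPM in controls (median 16.2), and the control range lay inside the lens range. The means were 15.4 ± 2.13 CPM in lens and 15.8 ± 1.34 CPM in control retinas (log2 fold change -0.05, SE 0.081, limma adjusted p = 0.825).

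NTS encodes the precursor of neurotensin and neuromedin N and lies on chromosome 1 at 42207151 to 42223590, plus strand. Lens libraries spanned 68.2 to 88.3 CPM (median 73.5) and controls 61.2 to 85.7 CPM (median 73.4), so the groups overlapped nearly throughout. With 2369 to 3897 reads per library, counting error was under 2% on average, and the log2 fold change was 0.03 (SE 0.074, limma adjusted p = 0.900). Its sign differed with W-linked reads: the lens mean was lower by 6.21 CPM in libraries with them and higher by 8.68 CPM in those without (exact permutation p = 0.257 each).

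NPY, the gene of neuropeptide Y, lies on chromosome 2 at 31464139 to 31472049, plus strand, and was under 1 CPM in 5 lens and 2 control libraries. It ranged over 0.615 to 1.21 CPM in lens libraries (median 0.880) and 0.697 to 1.49 CPM in controls (median 1.07), with wide overlap (log2 fold change -0.10, SE 0.099, limma adjusted p = 0.678). With means of 0.936 CPM in lens and 1.08 CPM in control retinas, NPY passed the 1 CPM filter only through the controls. Here the lens runs lay apart. Libraries 1 to 4 had 0.863, 0.873, 0.615 and 0.880 CPM, all below libraries 12 to 14, which had 1.14, 1.21 and 0.971 CPM. The runs lay apart in that direction for 7.15% of 12263 genes, and 5.01% of 11005 genes were called between them. For NPY the difference was -0.22 on the log2 scale (limma adjusted p = 0.247; exact permutation p = 0.0286, the smallest 4 against 3 allow).

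CCK, the gene of cholecystokinin, lies on chromosome 2 at 43774048 to 43778727, minus strand. Lens libraries had 1.68 to 2.62 CPM (median 1.88) and controls 1.41 to 2.42 CPM (median 1.54). The 7 lens libraries were all above the control median, a pattern whose share of all genes was not counted. Control 18, at 2.42 CPM, lay above 6 of them. The log2 fold change was 0.17 (SE 0.095, limma adjusted p = 0.410). It was 0.26 in lens libraries 1 to 4 (adjusted p = 0.127), which had 2.34, 2.62, 1.88 and 2.03 CPM, and 0.04 in libraries 12 to 14, which had 1.87, 1.68 and 1.70 CPM. Within libraries with W-linked reads the lens mean was higher by 0.603 CPM (exact permutation p = 0.0571), and within the others by 0.0561 CPM (exact p = 0.914).

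SST, the gene of somatostatin, lies on chromosome 9 at 14960081 to 14961615, plus strand, and was listed at 0 in 10 of 14 libraries. Lens libraries 1 and 3 had 0.0508 and 0.0879 CPM (2 and 3 reads), and controls 10 and 17 had 0.0248 and 0.0268 CPM (1 read each). A count of 0 allows up to 3 reads, 0.0609 to 0.108 CPM in these libraries, so all values were at or under that limit, and no fold change or test is given. Whether reads of this gene were all assigned to it could not be settled from the values, so the zeros do not show that it was silent.

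**Figure D3:**
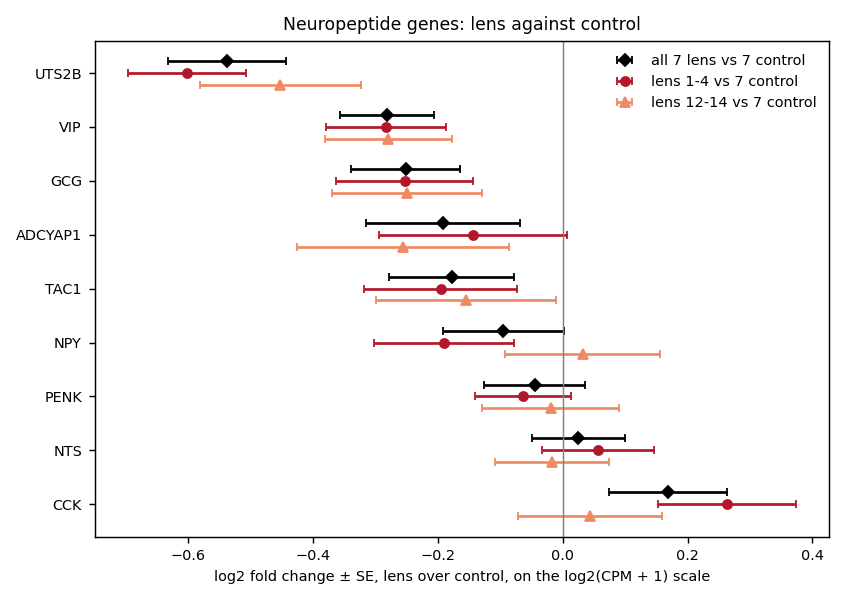
Log2 fold change ± SE of 9 neuropeptide genes (x axis, log2(CPM + 1) scale, lens over control) in the fit of genes averaging at least 0.5 CPM, for all 7 lens libraries (diamonds), lens libraries 1 to 4 (circles) and 12 to 14 (triangles), each against the same 7 controls. UTS2B has the lowest values (-0.54, -0.60 and -0.45), GCG and VIP are alike in both lens runs, and NPY and NTS differ in sign between them.

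How the genes varied from library to library was described by deviations from the group means. Of the 21 pairs of the 7 members averaging at least 1 CPM, 10 had a Pearson r above 0, and 1 passed, GCG with NPY, at r = -0.80 (permutation p = 0.0022, adjusted p = 0.0462). Within each group r was negative, at -0.51 in the 7 lens libraries (exact permutation p = 0.252) and -0.92 in the 7 controls (exact permutation p = 0.00873). The difference between these 2 values was not tested. In the controls, GCG was lower with each higher title number and NPY mostly higher, and whether title numbers mark an order of handling is not stated. Spearman's rho was -0.67 (permutation p = 0.01903, adjusted p = 0.1998), and r was -0.74 without the 2 libraries farthest from the median of GCG. It was -0.74 within libraries with W-linked reads and -0.85 within the others. With UTS2B and VIP added, the adjusted p over 36 pairs was 0.0893. NPY and ADCYAP1 counted among the 7 members only through the controls, as their lens means were 0.936 and 0.894 CPM. The set of 21 pairs thus rested on the group where both were higher. GCG with PENK followed at r = 0.56 (permutation p = 0.0103, adjusted p = 0.108; rho = 0.69, adjusted p = 0.115).

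**Figure D4:**
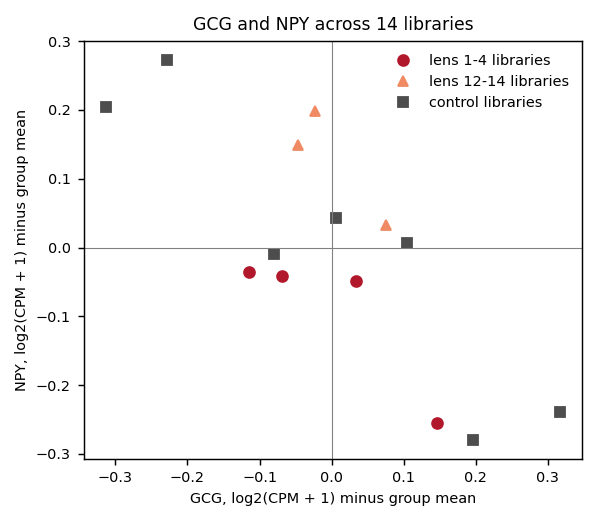
NPY (y axis) against GCG (x axis) as log2(CPM + 1) minus the group mean, 1 point per library (n = 14). Points run from upper left to lower right, with r = -0.80 over all libraries and -0.92 within the controls, and lens libraries 1 to 4 lie below 0 on the NPY axis.

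Among all tested genes, those whose deviations were most like those of GCG over the 14 libraries were KIAA1524 (r = 0.79), RCBTB1 (0.75) and SHCBP1 (0.73). For PENK they included PLPP7 (0.81) and PLPPR1 (0.72). For NTS they were the translation factor gene EIF3F (0.89), the RNA-binding protein gene HNRNPA1 (0.87) and the mitochondrial creatine kinase gene CKMT1A (0.85). These are descriptions across 14 libraries that differ in depth, chosen as the best of 11005 genes.

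Receptors of the peptides showed no called gene. Of 33 receptors listed, 28 were in the table and 11 averaged at least 1 CPM; 0 passed in either direction with all lens libraries or with libraries 1 to 4 (13.4% of 11005 genes called). Their median log2 fold change was -0.01, against 0.02 over all tested genes. Smallest in p was OPRD1, the delta receptor for enkephalins, with 1.26 ± 0.141 CPM in lens and 1.77 ± 0.399 CPM in control retinas (log2 fold change -0.28, limma adjusted p = 0.219). The VIP receptors followed: VIPR1 had 17.5 ± 1.25 CPM in lens and 19.7 ± 2.80 CPM in control (-0.16, adjusted p = 0.376), and VIPR2 had 4.86 ± 0.721 CPM in lens and 5.58 ± 1.02 CPM in control (-0.16, adjusted p = 0.495).

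The receptor genes of glucagon, the glucagon-like peptides and urotensin averaged under 1 CPM. The glucagon receptor gene GCGR averaged 0.455 ± 0.0982 CPM in lens and 0.359 ± 0.0977 CPM in control retinas, GLP1R 0.0630 ± 0.0513 CPM in lens and 0.107 ± 0.0698 CPM in control, and UTS2R 0.465 ± 0.147 CPM in lens and 0.514 ± 0.151 CPM in control. GLP2R, the receptor gene of another glucagon-like peptide, averaged 0.765 ± 0.182 CPM in lens and 0.516 ± 0.249 CPM in control. None of these entered the fit of genes averaging at least 1 CPM. The PACAP receptor gene ADCYAP1R1 (17.5 ± 1.90 CPM in lens, 16.6 ± 1.42 CPM in control) and the neurotensin receptor gene NTSR1 (4.20 ± 0.396 CPM in lens, 4.17 ± 0.573 CPM in control) did, and had log2 fold changes of 0.07 and 0.01. The receptor genes of this paragraph were named for the peptides they bind, after their values were seen.

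Genes of precursor processing and dense-core granules were mostly present: 28 of 31 were in the table and 23 were tested. With all lens libraries 0 passed, 10 of 23 log2 fold changes were below 0, and the median was 0.01 against 0.02 over all genes. PCSK1, the convertase that cuts many neuropeptide precursors, had 20.2 ± 2.41 CPM in lens and 24.2 ± 3.64 CPM in control retinas (-0.24, limma adjusted p = 0.255). PTPRN2, a membrane protein of dense-core vesicles, had 162 ± 12.9 CPM in lens and 148 ± 4.95 CPM in control (0.13, adjusted p = 0.261). PCSK5, another convertase, had 10.9 ± 2.23 CPM in lens and 13.3 ± 1.82 CPM in control (-0.28, adjusted p = 0.280).

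In lens libraries 1 to 4, 4 of the 23 processing genes passed, 2 in each direction, a share of 17.4% beside 13.4% of all tested genes (9.4% higher and 4.05% lower; 1034 higher and 446 lower genes, and 678 and 794 after median-of-ratios scaling). PTPRN2 rose, with 171 ± 6.04 CPM in lens (n = 4) and 148 ± 4.95 CPM in control retinas (n = 7; log2 fold change 0.21, limma adjusted p = 0.00665). THOP1, a peptidase that degrades neuropeptides such as neurotensin, rose, with 17.9 ± 0.411 CPM in lens and 14.9 ± 1.43 CPM in control (0.25, adjusted p = 0.0361). SYT4, a synaptotagmin of dense-core vesicles, fell, with 113 ± 6.83 CPM in lens and 133 ± 5.45 CPM in control (-0.23, adjusted p = 0.00910). The fourth was QPCT, the glutaminyl cyclase that caps peptides such as neurotensin, named after its values were seen. It fell, with 29.6 ± 2.14 CPM in lens and 35.1 ± 3.29 CPM in control (-0.24, limma adjusted p = 0.0479). Lens libraries 12 to 14 averaged 149, 14.3, 134 and 33.6 CPM of PTPRN2, THOP1, SYT4 and QPCT. Their log2 fold changes against the controls were 0.01, -0.06, 0.01 and -0.05, with 0% of 11005 genes called.

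Of 50 genes listed as other neuropeptide precursors, 31 were in the table and 3 averaged at least 1 CPM. Of these 3, 0 passed with all lens libraries (0% of 11005 genes) or with libraries 1 to 4 (13.4%). GNRH1, the gonadotropin-releasing hormone gene, had 3.31 ± 1.25 CPM in lens and 3.94 ± 0.605 CPM in control retinas, and CALCB and NXPH1 differed by less than their spread. NXPH1 encodes a neurexophilin and is not a neuropeptide precursor gene, though it was in the list. Of 34 amacrine transcription factors and enzymes, 32 were in the table and 28 were tested, with 0 called for all lens libraries and a median log2 fold change of 0.04. GAD2, an enzyme of GABA synthesis, had 79.8 ± 3.08 CPM in lens and 85.9 ± 5.80 CPM in control (-0.10, limma adjusted p = 0.323), while MEIS2 and EBF3 had log2 fold changes of 0.15 and 0.11. With lens libraries 1 to 4, 1 of the 28 passed, beside 13.4% of all tested genes. This was PVALB, a calcium-binding protein, which rose, with 8.999 ± 1.14 CPM in lens and 7.16 ± 0.548 CPM in control (0.29, limma adjusted p = 0.0404). In lens libraries 12 to 14 PVALB averaged 6.77 CPM, a log2 fold change of -0.07.

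Markers of other retinal cells were also looked at with lens libraries 1 to 4, where 13.4% of all tested genes were called. Of the tested markers, 0 of 6 for photoreceptors, 0 of 4 for horizontal cells and 0 of 3 for Mueller glia passed. Of 4 tested bipolar markers 1 passed, VSX1, which rose, with 82.2 ± 7.89 CPM in lens and 58.1 ± 4.48 CPM in control retinas (log2 fold change 0.49, limma adjusted p = 0.00163). Of 5 tested ganglion cell markers 1 passed, RBPMS2, which rose, with 3.23 ± 0.422 CPM in lens and 2.09 ± 0.645 CPM in control (0.47, adjusted p = 0.0445). The summed bipolar markers were 374 to 413 CPM in those 4 lens libraries and 345 to 378 CPM in controls. The ganglion markers summed to 125 to 152 CPM in those lens libraries and 126 to 158 CPM in controls. The amacrine markers summed to 536 to 584 CPM in those lens libraries and 503 to 553 CPM in controls. In lens libraries 12 to 14 the bipolar, ganglion and amacrine sums were 342 to 369, 133 to 151 and 454 to 518 CPM. VSX1 and RBPMS2 were named after their values were seen. In lens libraries 12 to 14 they averaged 55.3 and 2.35 CPM, with log2 fold changes of -0.07 and 0.14 against the controls. The part of these cells in the differences of UTS2B, the processing genes and PVALB was not tested.

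**Figure D5:**
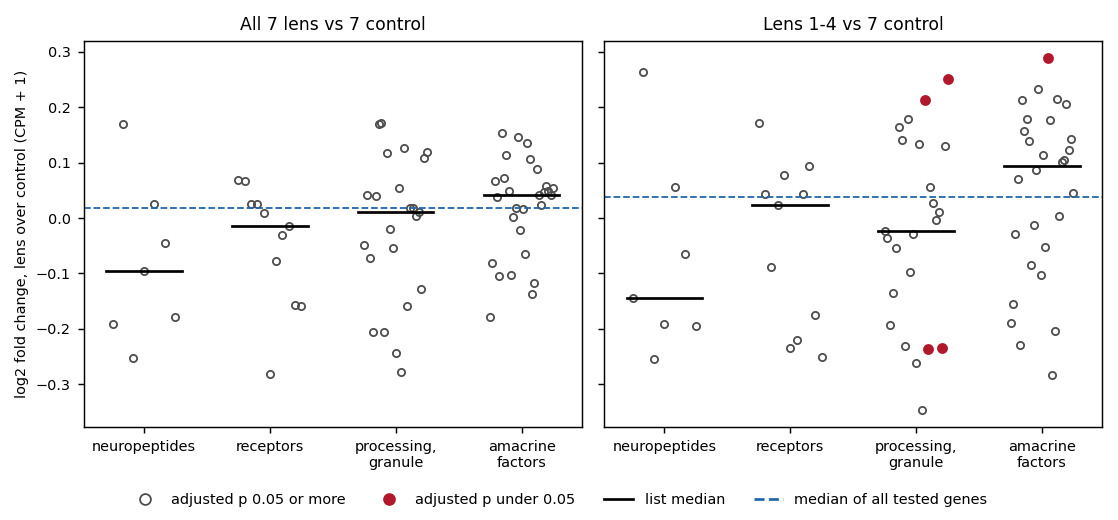
Log2 fold change (y axis, log2(CPM + 1) scale, lens over control) of each tested gene in 4 lists, for all 7 lens libraries (left) and lens libraries 1 to 4 (right) against 7 controls; filled points passed, bars are list medians and the dashed line is the median of all 11005 tested genes. No gene is filled on the left, and on the right 4 processing and 1 amacrine gene are, where 13.4% of all tested genes passed.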

How the data were processed

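Stranded, ribosomal RNA-depleted libraries were made, per the labels' protocols. STAR, Partek and GRCg6a are named in the submitters' processing notes, and the way reads were counted, and whether by strand, is not stated in the sources at hand. The values deposited by the authors were read as CPM from the values themselves: after a constant of 0.0001 was subtracted, 93.9% to 95.1% of values up to 20 steps were whole multiples of 1 step within 0.05, too few for a count model. Listed genes summed to 29.9% to 31.9% of 1000000.

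The 11005 genes that averaged 1 CPM or more were tested on log2(CPM + 1) with limma 3.58.1 in R 4.3.3 (two-sided, with a mean-variance trend, p adjusted over all tested genes by Benjamini-Hochberg); 7626 fell under the filter. Single genes were also tested by exact permutation of the difference in means over all 3432 splits, unadjusted. Pair correlations used 100000 permutations within groups. On simulated data of 11005 genes, lens against control recovered 62% of genes changed 1.25-fold in CPM + 1 and 98% changed 1.5-fold, with 6 false calls. At low CPM such a change in CPM + 1 is a larger fold in CPM. The simulation used the spread of the controls in every library and no difference between lens runs. It thus does not give the recovery to be had for the members.

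Alternatives covered the pseudocount, the filter (0.5 CPM or none), the scaling, the variance, library weights, rank sums, the title letter or W-linked reads as covariate, values within libraries with or without W-linked reads, and each library left out. The alternatives were followed for the members and for counts of called genes, and not for single genes of the lists or markers. The members and lists were chosen with earlier results of these data known. Genes named were the 10 members, the 3 of smallest p in each list, the 3 of smallest p called with lens libraries 1 to 4, and for members of at least 5 CPM the 3 genes of highest r, of which 1 is not reported here; others are said to be named after their values were seen. Coordinates are those of the deposited table.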

Additional observations from a re-analysis of the deposited data

Results flagged for a closer look

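Of 75 groups of 4 to 10 libraries examined, 4 had 1 library that stood apart; chance is expected to do this in about 5%. UTS2B in lens libraries had 1.08 CPM in lens 12 and 0.381 to 0.621 CPM in the others. TAC1 in lens libraries had 5.22 CPM in lens 14 and 4.13 to 4.59 CPM in the others. NPY in lens libraries 1 to 4 had 0.615 CPM in lens 3 and 0.863 to 0.880 CPM in the others. PTPRN2 in control libraries had 158 CPM in control 21 and 144 to 148 CPM in the others. The lens runs differed in PTPRN2, with 171 CPM in libraries 1 to 4 and 149 CPM in libraries 12 to 14 (log2 difference 0.20, limma adjusted p = 0.0499). The cause was not tested for any of these.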

How the results depend on the processing

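No paired analysis was possible because lens and control libraries share no title number. Fits of UTS2B and VIP under alternatives other than the 0.5 CPM filter, pairs of 9 members, and GCG with NPY within each group, were added after seeing the data. With all lens libraries, 0 genes were called, but 16 with library weights and 0 to 15 with a library left out; 6 were called within libraries with W-linked reads. In the fit down to 0.5 CPM, UTS2B passed with library weights (limma adjusted p = 0.0480), where 13 of 12263 genes were called. In that fit VIP passed for libraries 1 to 4 with quantile scaling (limma adjusted p = 0.0376), where 1520 of 12263 genes were called. VIP was in that fit only through the controls, where it is higher. For libraries 1 to 4 the 1480 calls (1034 higher, 446 lower) became 0 with a rank-sum test and 724 to 1636 with a library left out; median-of-ratios scaling gave 678 higher and 794 lower. For libraries 12 to 14 the count was 0, with 1 under library weights and 0 to 2 with a library left out. Between the lens runs 551 became 261 without a filter and 1239 with library weights. The count was 278 with the title letter and 1448 with W-linked reads as covariate, and 9 to 807 with a library left out. Median-of-ratios scaling gave 186 higher and 247 lower between the runs, against 389 and 162. By rank sums 0 were called, but with so few lens libraries that exact test cannot give a p under 0.05. That 0 was thus fixed beforehand and says nothing about the 551 calls. Signs reversed, none of them called, within libraries without W-linked reads for PENK (0.0133) and NPY (0.0131) and within those with them for NTS (-0.12); for libraries 12 to 14 with library weights for PENK (0.0585) and NPY (-0.0127); and between the lens runs for GCG (0.0173, title letter), VIP (0.0269, library weights), PENK (0.0199, W-linked covariate) and ADCYAP1 (-0.0196, quantiles). With a library left out, ranges crossed 0 with all lens libraries for PENK (-0.0911 to 0.00362) and NTS (-0.0207 to 0.0589), for libraries 1 to 4 for NTS (-0.00626 to 0.104), for 12 to 14 for PENK (-0.145 to 0.139), NPY (-0.0147 to 0.0790) and NTS (-0.0696 to 0.0364), and between the runs for GCG (-0.0525 to 0.0345), VIP (-0.0500 to 0.0382), PENK (-0.203 to 0.0812), TAC1 (-0.0915 to 0.0472) and UTS2B (-0.24 to 0.0218). The cause was not tested. The exact permutation p of TAC1 was 0.0350 for medians, and those of UTS2B, VIP and GCG stayed under 0.05 with medians, another scaling or a library left out. Depth limits SST and VIP, at 35 reads or fewer per library, and UTS2B, NPY and ADCYAP1, at 72 or fewer, and intervals of counting error leave out other sources of spread.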
